A study of Homo sapiens with 8 samples.

Results

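The genes of the enterocyte brush border and of its digestive and absorptive enzymes and transporters were followed in human Caco-2 and HUG1N cells with and without a short hairpin RNA (shRNA) against GATA6. The 37 genes were listed by symbol and role, and each was represented by its probe set with the highest mean over all 8 arrays. A probe set annotated to a single gene was found for 36 of them, out of 11963 genes on the array, and none for GGT1. Of the 36 genes, 24 exceeded a log2 value of 4 in at least 2 arrays and were tested. The other 12 exceeded it in no array.

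The brush border is the apical surface of the absorptive cell of the gut, a carpet of microvilli held up by bundled actin. Hydrolases anchored in its membrane finish the digestion of peptides and sugars, and transporters beside them take up the products. GATA6 is a zinc finger transcription factor of gut epithelium that binds the core sequence GATA in DNA.

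Caco-2 is a line from a human colorectal adenocarcinoma that is known to form a brush border in culture. HUG1N, given in the labels also as HuG-1, is a human gastric cancer line. The 4 groups, with 2 arrays each, were Caco-2 cells with GATA6 shRNA, Caco-2 control cells, HUG1N cells with GATA6 shRNA and HUG1N control cells. All were grown in the media recommended by ATCC. Infection with the shRNA and puromycin selection are described in the same words for every sample, and what vector the control cells carried is not stated. Also not stated are the number of hairpins, the time the cells were kept after selection, and whether replicate arrays represent independent cultures. Every p-value below thus reflects array-to-array spread, which may be technical.

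Values are log2 expression values with a lowest value of 2.08, at or near which a transcript was not measurable. Across 11963 genes, which are not independent replicates, Pearson's r was 0.998 to 0.999 within a group, 0.986 to 0.987 between the groups of a line and 0.892 to 0.910 between the lines. All 6 epithelial identity genes, among them EPCAM and CDH1, exceeded log2 4 in both arrays of each group. The HUG1N shRNA arrays stood apart in their technical probe sets. The difference between the 3′ and the 5′ probe set of ACTB, a measure of RNA integrity, was 3.73 ± 0.06 in HUG1N shRNA arrays and 2.51 ± 0.23 in HUG1N control arrays. It was 1.55 ± 0.13 in Caco-2 shRNA arrays and 1.92 ± 0.02 in Caco-2 control arrays (log2 units, mean ± SD, n = 2 arrays). The hybridization controls, 9 probe sets for transcripts added in fixed amount, averaged 10.90 ± 0.05 in HUG1N shRNA arrays and 12.75 ± 0.18 in HUG1N control arrays. In Caco-2 they averaged 12.40 ± 0.14 in shRNA arrays and 12.54 ± 0.12 in control arrays. These shifts ran with the shRNA in HUG1N, and their part in the changes below was not tested.

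GATA6 itself read 12.23 and 12.02 in Caco-2 shRNA arrays, against 12.63 and 12.45 in Caco-2 control arrays. In HUG1N it read 12.26 and 12.22 in shRNA arrays, against 12.54 and 12.45 in control arrays. Within each line the shRNA arrays were the lower ones, without overlap. The log2 change was -0.42 (SE 0.10, adjusted p = 0.0224, limma) in Caco-2 and -0.25 (SE 0.10, adjusted p = 0.0879, limma) in HUG1N, so that with the settings used here the change passed the threshold of 0.05 in Caco-2 and missed it in HUG1N. The Caco-2 call was lost without an expression filter (adjusted p = 0.0562), with Caco-2 fitted alone (0.0724), without Caco-2 control replicate 1 (0.112) and without Caco-2 shRNA replicate 2 (0.0949). The HUG1N change passed with a trended, robust variance model (0.0346). GATA6 was read here by 1 probe set.

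Promoter windows are shown for AADAC and CLIC5, which moved in the same direction in both lines, and for BTNL8, which had the largest called change among these genes in Caco-2. Each run is the 250 bases before a RefSeq transcript start (GRCh38.p14), written 5′ to 3′ on the strand of the gene. Capitals mark every match to AGATAA or AGATAG, and to TGATAA or TGATAG, the words that GATA factors are known to bind, on either strand.
AADAC (chr3:151813866-151814115, plus strand): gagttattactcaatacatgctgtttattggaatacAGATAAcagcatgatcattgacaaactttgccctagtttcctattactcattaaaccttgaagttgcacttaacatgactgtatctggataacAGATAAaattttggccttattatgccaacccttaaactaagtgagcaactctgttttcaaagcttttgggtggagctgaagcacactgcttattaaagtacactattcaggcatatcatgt
BTNL8 (chr5:180898909-180899158, plus strand): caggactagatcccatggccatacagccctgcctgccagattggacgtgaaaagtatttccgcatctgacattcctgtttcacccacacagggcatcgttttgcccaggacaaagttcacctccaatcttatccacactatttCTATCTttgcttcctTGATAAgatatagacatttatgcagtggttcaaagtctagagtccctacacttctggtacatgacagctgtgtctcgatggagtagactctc
CLIC5, the start with the most matches (chr6:46080349-46080598, minus strand): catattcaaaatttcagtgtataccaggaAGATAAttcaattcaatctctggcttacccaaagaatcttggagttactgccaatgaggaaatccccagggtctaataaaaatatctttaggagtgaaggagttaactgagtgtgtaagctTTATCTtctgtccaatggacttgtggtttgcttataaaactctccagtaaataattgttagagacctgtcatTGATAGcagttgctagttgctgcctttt
The AADAC window held 2 of these words, the BTNL8 window 2 and the CLIC5 window 3. For the other CLIC5 starts, the window at chr6:46129820-46130069 held 1 and that at chr6:46015861-46016110 held none. GUCY2C, which fell in both lines, is not shown. Among all starts in the RefSeq table, 7840 of 35116 windows held at least 1 of the words (22.3%). Windows were found for 27 of the genes, with 38 starts, and 13 of these held a word (34.2%). The word GTTAAT, a core of HNF1 sites, was in 8 of the 38 windows (21.1%), against 6.23% of all windows. TTTAT, a core of CDX sites, was in 16 of the 38 (42.1%), against 32.7% of all. Both strands were searched, and a TTTAT match can overlap a GATA word, since AGATAAA holds it on the opposite strand. A match is only a run of letters in this window, and these shares were not tested.

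Without the shRNA, the genes were mostly far lower in HUG1N than in Caco-2. Over log2 4 in both arrays were 11 of the 36 genes in HUG1N control cells and 23 in Caco-2 control cells. Both counts take in CDHR2, whose value of 4.46 was the same in 5 of the 8 arrays and may be its own background. The HUG1N count also takes in BTNL8, at 4.38 and 4.66. HUG1N control cells differed from Caco-2 control cells in 19 of the 24 tested genes (79.2%), 3 higher (12.5%) and 16 lower (66.7%). Over all 7696 tested genes 78.4% differed, 37.1% higher and 41.3% lower (limma, adjusted p under 0.05). The median log2 difference of the 24 genes was -3.63, against -0.05 over all tested genes. Most of the 16 lower genes exceeded log2 4 in no HUG1N array and were tested only because of their Caco-2 arrays. For these a lower level in HUG1N followed from the filter, so the share of lower genes and the median are no independent sign of it. The line and everything that comes with it, such as the organ and the culture history, cannot be told apart here. A level averages all cells of a culture, so fewer cells that express a gene and less RNA per cell cannot be told apart either.

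The genes called higher in HUG1N were PLS1, EZR and EPS8. PLS1, also called fimbrin or plastin 1, which bundles the core actin, read 12.88 and 12.88 in HUG1N control arrays and 10.51 and 10.48 in Caco-2 control arrays, a difference of 2.39 (SE 0.11, adjusted p = 3.39e-06, limma). EZR (ezrin, the link between actin and the membrane) was 2.90-fold and EPS8, which caps and bundles actin at the microvillus tip, 1.87-fold higher in HUG1N. Most of the lower genes had no reading over log2 4 in HUG1N control cells, so that their difference is a bound, the mean of the Caco-2 control arrays over log2 4. PDZK1, a PDZ scaffold under the apical membrane, was at least 143-fold lower. A1CF, the factor that directs APOBEC1 to APOB mRNA, was at least 99.4-fold lower, and sucrase-isomaltase (SI) was at least 90.2-fold lower. Villin (VIL1), which severs and bundles actin, was measured in both lines and was 32.1-fold lower in HUG1N, as was the dipeptidyl peptidase DPP4 (18.8-fold). Neither GUCY2C (log2 difference -0.06, 95% confidence interval -0.34 to 0.22) nor SLC15A1 (0.53, -0.23 to 1.29) passed the test between the control groups, though SLC15A1 did without HUG1N control replicate 2 (0.97, adjusted p = 0.0174). SLC3A1, a chain of an amino acid carrier, was 0.89 higher in HUG1N (95% confidence interval 0.05 to 1.73) and just missed the threshold (adjusted p = 0.0517, limma), which it passed under 10 alternatives (0.00128 to 0.0470).

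**Figure D1:**
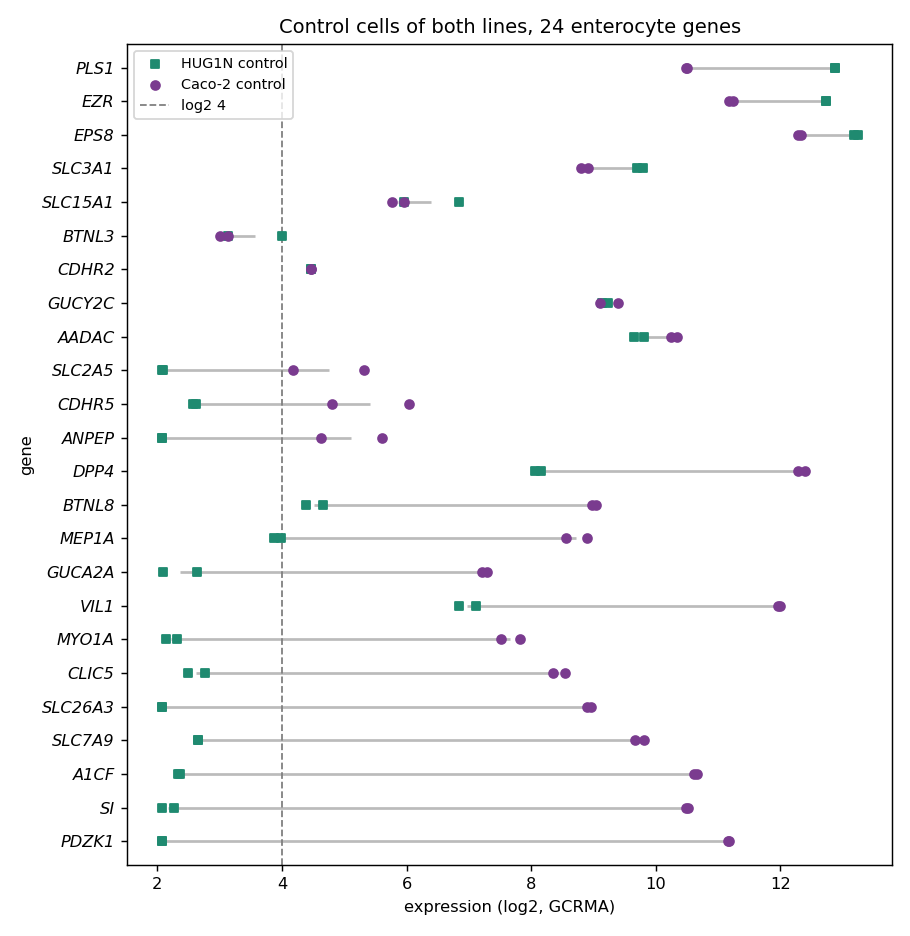
Log2 expression (horizontal axis) of the 24 tested genes in each HUG1N control array (green squares) and Caco-2 control array (purple circles), with a grey line between the group means and a dashed line at log2 4. The genes run by their difference from the top, where PLS1, EZR and EPS8 were higher in HUG1N, to the bottom, where PDZK1, SI and A1CF lay near the floor in HUG1N.

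Under the shRNA, 14 of the 24 tested genes were called in Caco-2 (58.3%), 5 higher (20.8%) and 9 lower (37.5%). Over all tested genes 38.7% were called, 19.5% higher and 19.2% lower. The 24 genes had a median log2 change of -0.33, against -0.00 over all tested genes. In HUG1N 9 of the 24 were called (37.5%), 4 higher (16.7%) and 5 lower (20.8%). Over all tested genes 48.7% were called there, 24.7% higher and 23.9% lower, and both medians were 0.00. Many of the 24 genes were under log2 4 in HUG1N with and without the shRNA, where a fall could not be seen.

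Both lines called 6 of the genes. CLIC5 was higher and AADAC and GUCY2C were lower in both, while DPP4, PLS1 and SLC15A1 moved in opposite directions. Among all tested genes, 1576 were called in both lines (20.5%), 1014 of them in the same direction (64.3%). Another 11 of the 24 were called in a single line and 7 in neither. The shares over all tested genes are not given for these counts, which are thus not read as a trait of these genes. The number over log2 4 in both arrays was 20 in Caco-2 shRNA cells and 23 in Caco-2 control cells, and 12 in HUG1N shRNA cells and 11 in HUG1N control cells (of 36). CDHR2, which may be at its own background, is counted in every group but HUG1N shRNA cells.

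**Figure D2:**
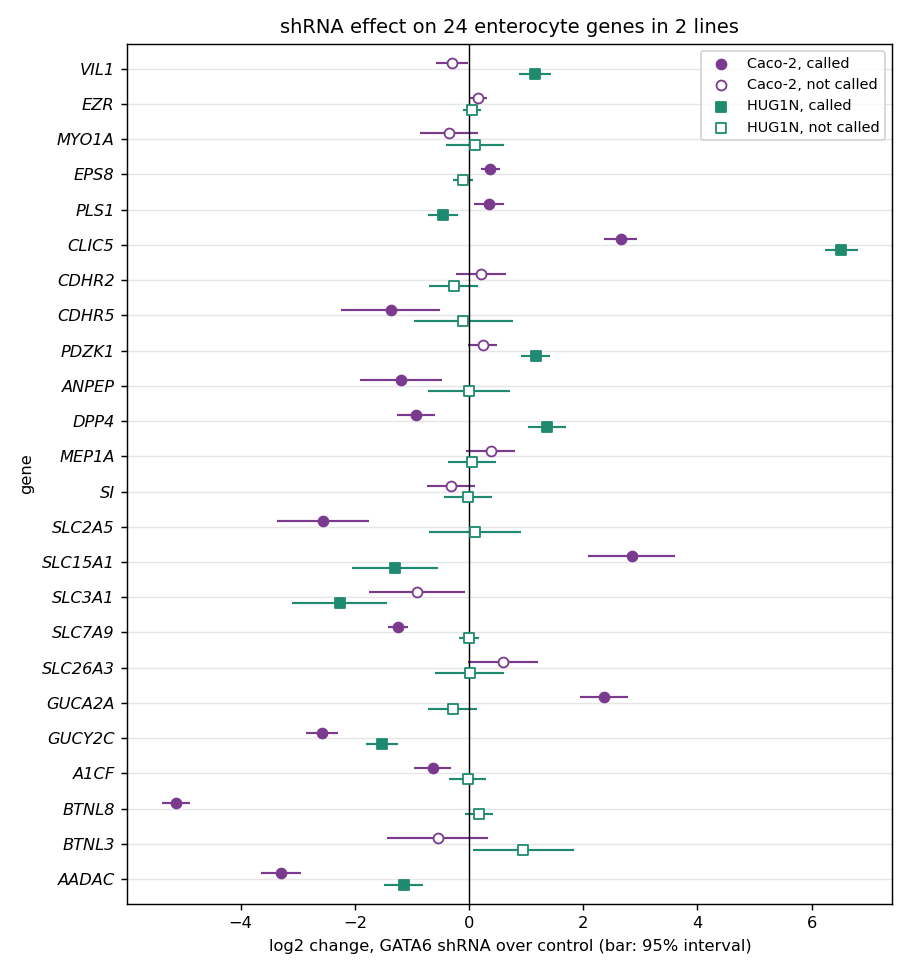
Log2 change, shRNA over control (horizontal axis), of the 24 tested genes in Caco-2 (purple) and HUG1N (green), with 95% confidence intervals from limma as bars and filled symbols for calls at an adjusted p under 0.05. CLIC5 lay to the right and AADAC and GUCY2C to the left in both lines, BTNL8 lay far left in Caco-2 and near 0 in HUG1N, and SLC15A1 and DPP4 lay on opposite sides of 0.

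Of the core microvillus genes, 6 were tested, with 3 higher and none lower in Caco-2, and 2 higher and 1 lower in HUG1N. CLIC5, a chloride intracellular channel protein that associates with ezrin at the base of microvilli, rose most. It read 11.15 and 11.05 in Caco-2 shRNA arrays, against 8.34 and 8.54 in Caco-2 control arrays, a log2 change of 2.66 (SE 0.12, adjusted p = 3.31e-05, limma). In HUG1N it read 9.17 and 9.12 in shRNA arrays, against 2.76 and 2.49 in control arrays, and was at least 35.4-fold higher (adjusted p = 3.80e-06, limma). Both HUG1N shRNA arrays thus gave a clear signal, while both HUG1N control arrays lay under log2 4.

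A second CLIC5 probe set read 8.40 and 8.39 in Caco-2 shRNA arrays and 5.03 and 5.78 in Caco-2 control arrays, a log2 change of 2.99 (SE 0.25). In HUG1N it read 6.85 and 6.47 in shRNA arrays and 3.34 and 3.25 in control arrays, at least 6.33-fold higher. Another, dimmer probe set rose at least 2.52-fold in Caco-2 (adjusted p = 0.0209, limma) and was not called in HUG1N (0.94, adjusted p = 0.212). The rise in Caco-2 was therefore called by all 3 probe sets, while its size relative to HUG1N depended on the probe set.

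VIL1 read 8.22 and 8.02 in HUG1N shRNA arrays, against 7.11 and 6.84 in HUG1N control arrays, and rose by 1.15 log2 units (SE 0.11, adjusted p = 6.03e-04, limma). In Caco-2 it read 11.64 and 11.71 in shRNA arrays, against 11.99 and 11.96 in control arrays, a change of -0.30 that missed the threshold (adjusted p = 0.0832) but passed it with Caco-2 fitted alone (0.0305), with quantile normalization (0.0495) and with a trended, robust variance model (0.0488). The shRNA and control arrays did not overlap in either line. The 2 effects differed by 1.45 (SE 0.16, adjusted p = 0.00117, limma).

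EPS8 read 12.72 and 12.64 in Caco-2 shRNA arrays and 12.32 and 12.28 in Caco-2 control arrays, a rise of 1.30-fold (adjusted p = 0.00823, limma). Its HUG1N arrays read 13.14 and 13.06 with the shRNA and 13.24 and 13.18 without it, a change of -0.11 that was not called. PLS1 read 10.99 and 10.70 in Caco-2 shRNA arrays and 10.51 and 10.48 in Caco-2 control arrays, and 12.35 and 12.50 in HUG1N shRNA arrays and 12.88 and 12.88 in HUG1N control arrays. It was 1.28-fold higher in Caco-2 (adjusted p = 0.0481, limma) and 1.37-fold lower in HUG1N (adjusted p = 0.0162). The Caco-2 call was lost without an expression filter (adjusted p = 0.108), with Caco-2 fitted alone (0.107), with median centring (0.0581), and without any one array other than Caco-2 shRNA replicate 2 (0.0576 to 0.170). Without Caco-2 shRNA replicate 1 its value was 0.21. The HUG1N call was lost without HUG1N control replicate 1 (0.0633), HUG1N control replicate 2 (0.0634) or HUG1N shRNA replicate 1 (0.0772).

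EZR was not called in either line by its brightest probe set, which read 11.39 and 11.34 in Caco-2 shRNA arrays against 11.17 and 11.24 in Caco-2 control arrays, and 12.80 and 12.78 in HUG1N shRNA arrays against 12.74 and 12.74 in HUG1N control arrays. Another EZR probe set read 13.39 and 13.25 in HUG1N shRNA arrays and 12.29 and 12.07 in HUG1N control arrays, a rise of 1.14 (SE 0.11, adjusted p = 6.46e-04, limma). A further one rose by 0.97 in HUG1N (SE 0.14, adjusted p = 0.00264). Another tested one changed by 0.07 there and was not called (adjusted p = 0.659), like the brightest. The probe sets of this gene thus disagreed in HUG1N, 2 against 2, and which of them follows the EZR transcript was not tested. MYO1A, the brush border myosin, read 7.63 and 7.01 in Caco-2 shRNA arrays, against 7.52 and 7.81 in Caco-2 control arrays, and these overlapped. Without Caco-2 shRNA replicate 1 the change was called, at -0.65 (adjusted p = 0.0346, limma). In HUG1N it stayed between 2.14 and 2.35 in all 4 arrays. Espin (ESPN), another actin bundler, exceeded log2 4 in no array.

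**Figure D3:**
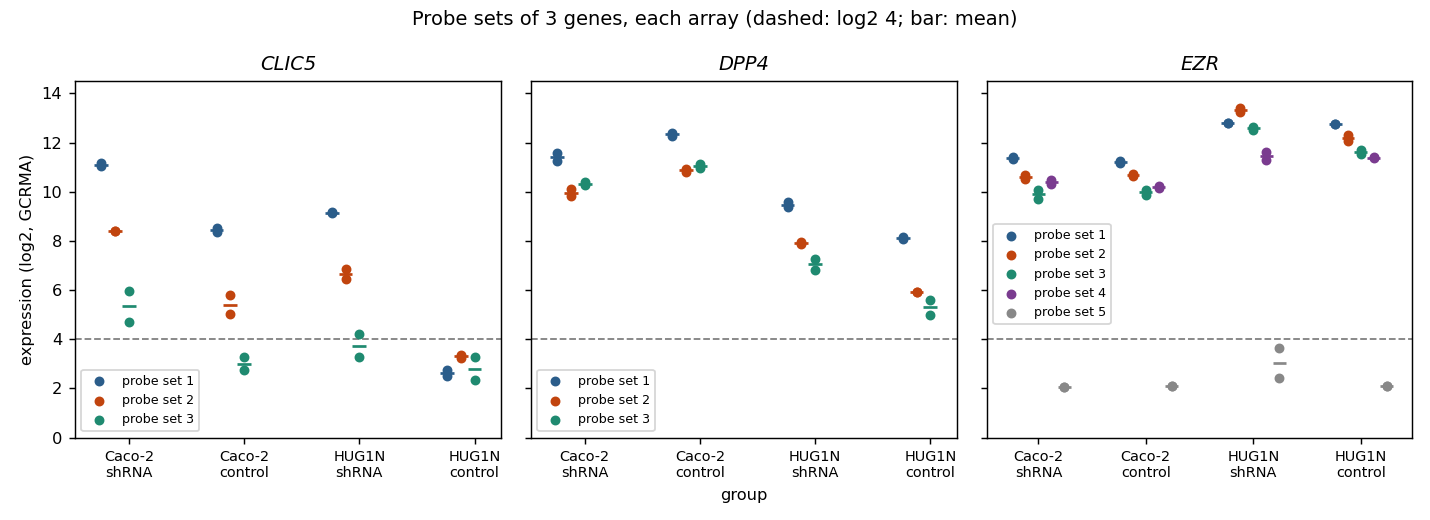
Log2 expression (vertical axis) of each probe set of CLIC5, DPP4 and EZR in each array, by group, with short bars for the means of 2 arrays and a dashed line at log2 4. The CLIC5 and DPP4 probe sets kept 1 direction within a line, though the dimmest of each gene missed the threshold in 1 line, while 2 EZR probe sets rose in HUG1N (1.14 and 0.97) and the other 2 tested ones were not called (0.05 and 0.07).

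CDHR5, a protocadherin whose links between neighbouring tips space the microvilli, read 4.01 and 4.08 in Caco-2 shRNA arrays, against 6.03 and 4.81 in Caco-2 control arrays. Both shRNA arrays were just over the detection limit and below both control arrays, and the change was -1.37 (SE 0.36, adjusted p = 0.0262, limma). The call was lost without an expression filter (adjusted p = 0.0988), with Caco-2 fitted alone (0.109), without Caco-2 shRNA replicate 1 (0.109) and without Caco-2 shRNA replicate 2 (0.0933). Without Caco-2 control replicate 1 it was kept at -0.76. In HUG1N it was under log2 4 in all arrays. Its binding partner CDHR2 read exactly 4.46 in 5 of the 8 arrays, so a level above its own background was not shown there, and it was called in neither line with all arrays.

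PDZK1 read 11.40 and 11.41 in Caco-2 shRNA arrays, against 11.17 and 11.15 in Caco-2 control arrays, a change of 0.24 that was not called (adjusted p = 0.122, limma) but was with Caco-2 fitted alone (0.0316), with values under log2 4 raised to 4 (0.0192) and without HUG1N shRNA replicate 1 or 2 (0.0271 each). In HUG1N it passed the test with a change of 1.17, but no array there exceeded log2 4 (3.40 and 3.09 with the shRNA, 2.08 and 2.08 without), so no fold is given.

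Among the membrane peptidases, 3 were tested, with 2 lower in Caco-2 and 1 higher in HUG1N. DPP4, which removes dipeptides from the amino end of peptides, read 11.58 and 11.23 in Caco-2 shRNA arrays, against 12.40 and 12.27 in Caco-2 control arrays. Its HUG1N values were 9.37 and 9.56 in shRNA arrays, against 8.06 and 8.15 in control arrays. The groups did not overlap in either line, and the shRNA arrays were the lower in Caco-2 and the higher in HUG1N. The log2 change was -0.93 (SE 0.14, adjusted p = 0.00312, limma) in Caco-2 and 1.36 (SE 0.14, adjusted p = 6.14e-04) in HUG1N. The effects differed by 2.29 (SE 0.19, adjusted p = 4.33e-04). Its other 2 probe sets changed by -0.91 and -0.71 in Caco-2, the smaller of these not called (adjusted p = 0.0568), and rose by 1.98 and 1.75 in HUG1N, both called.

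Aminopeptidase N (ANPEP) was near the detection limit in Caco-2, at 4.06 and 3.77 in shRNA arrays and 5.60 and 4.62 in control arrays, and fell by 1.19 log2 units (SE 0.30, adjusted p = 0.0224, limma). The call was lost without an expression filter (adjusted p = 0.0868), with Caco-2 fitted alone (0.0998), and without Caco-2 shRNA replicate 1 (0.0629) or 2 (0.108). Without Caco-2 control replicate 1 it was kept at -0.70. Its HUG1N arrays all stood at 2.08. The metalloprotease meprin A (MEP1A) read 9.33 and 8.87 in Caco-2 shRNA arrays and 8.89 and 8.55 in Caco-2 control arrays, which overlapped, and was under log2 4 in HUG1N. Without Caco-2 shRNA replicate 2 its rise of 0.61 was called (adjusted p = 0.0443, limma). ENPEP, MME and MEP1B exceeded log2 4 in no array.

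Sucrase-isomaltase, which splits sucrose and the branch points of starch, was the only disaccharidase measured. SI read 10.45 and 9.90 in Caco-2 shRNA arrays and 10.52 and 10.48 in Caco-2 control arrays, a change of -0.32 that was not called (95% confidence interval -0.74 to 0.11, adjusted p = 0.201, limma). Without Caco-2 shRNA replicate 1 it was called, at -0.59 (adjusted p = 0.0170). In HUG1N it lay between 2.08 and 2.27. LCT, MGAM and TREH (lactase, maltase-glucoamylase and trehalase) exceeded log2 4 in no array. Nor did the glucose carriers SLC5A1 and SLC2A2. The fructose carrier SLC2A5 read 2.19 and 2.19 in Caco-2 shRNA arrays, against 5.32 and 4.18 in Caco-2 control arrays. It was at least 1.68-fold lower (adjusted p = 0.00201, limma), but with all values under log2 4 raised to 4 the change was -0.75 and not called (adjusted p = 0.116). SLC2A5 exceeded log2 4 only in the 2 Caco-2 control arrays and entered the test through them. A lower level in the other groups was thus set by the filter.

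SLC15A1, the proton-coupled carrier PEPT1 for dipeptides and tripeptides, moved in opposite directions in the lines. It read 8.93 and 8.49 in Caco-2 shRNA arrays, against 5.77 and 5.96 in Caco-2 control arrays. The HUG1N arrays read 4.91 and 5.29 in shRNA arrays, against 6.84 and 5.95 in control arrays. In neither line did the groups overlap. The rise in Caco-2 was 7.19-fold (log2 2.85, SE 0.31, adjusted p = 0.00101, limma), and the HUG1N level was 2.45-fold lower (log2 -1.29, SE 0.31, adjusted p = 0.0155). The effects, HUG1N minus Caco-2, differed by -4.14 (SE 0.44, adjusted p = 9.91e-04). The HUG1N call was lost without an expression filter (adjusted p = 0.0666), with HUG1N fitted alone (0.0774) and without HUG1N shRNA replicate 1 (0.0819). Without HUG1N control replicate 1 the change was kept at -0.85.

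SLC3A1 and SLC7A9 encode the heavy and the light chain of a single carrier, for cystine and basic amino acids. SLC7A9 read 8.48 and 8.48 in Caco-2 shRNA arrays, against 9.80 and 9.66 in Caco-2 control arrays, and fell by 1.25 (SE 0.07, adjusted p = 8.64e-05, limma). SLC3A1 read 8.42 and 7.47 in Caco-2 shRNA arrays, against 8.80 and 8.91 in Caco-2 control arrays, a change of -0.91 that missed the threshold (adjusted p = 0.0821). It passed with a trended, robust variance model (adjusted p = 0.0334, limma), and was called, at -1.39, without Caco-2 shRNA replicate 1. In HUG1N SLC3A1 read 7.83 and 7.12 in shRNA arrays, against 9.80 and 9.69 in control arrays, and fell by 2.27 (SE 0.35, adjusted p = 0.00274). HUG1N had the heavy chain without a measurable light chain, since SLC7A9 lay at 2.65 to 2.66 in all 4 HUG1N arrays.

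SLC26A3, the chloride and bicarbonate exchanger of the colon and small gut, read 9.95 and 9.10 in Caco-2 shRNA arrays and 8.95 and 8.90 in Caco-2 control arrays, a change of 0.60 (adjusted p = 0.110, limma). Both shRNA arrays were above both control arrays, but the shRNA arrays differed more from each other than from the control arrays on average. Without Caco-2 shRNA replicate 2 the change was 1.03 and was called (adjusted p = 0.00139). In HUG1N it lay at 2.08 to 2.10. The sodium and proton exchanger SLC9A3 and the bile acid carrier SLC10A2 exceeded log2 4 in no array.

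In the guanylin system, the peptide and its receptor moved apart in Caco-2. Guanylin (GUCA2A) is a peptide released into the lumen, and GUCY2C is the guanylate cyclase on the apical membrane that it activates to drive fluid secretion. GUCA2A read 9.51 and 9.71 in Caco-2 shRNA arrays, against 7.21 and 7.29 in Caco-2 control arrays, a rise of 5.15-fold (log2 2.36, SE 0.18, adjusted p = 2.27e-04, limma). GUCY2C read 6.75 and 6.59 in Caco-2 shRNA arrays, against 9.10 and 9.39 in Caco-2 control arrays, and was 5.96-fold lower (log2 -2.58, SE 0.11, adjusted p = 3.31e-05). In both cases the groups were far apart compared with the spread within them.

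In HUG1N GUCY2C read 7.70 and 7.63 in shRNA arrays, against 9.23 and 9.14 in control arrays, and was 2.88-fold lower (log2 -1.52, SE 0.11, adjusted p = 2.41e-04, limma). The fall was the larger in Caco-2, by 1.05 (SE 0.16, adjusted p = 0.00358). GUCA2A was under log2 4 in all HUG1N arrays, and uroguanylin (GUCA2B) in all 8 arrays. HUG1N thus carried the receptor transcript with neither peptide transcript measurable.

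BTNL8, a butyrophilin-like protein by which enterocytes are known to engage gamma-delta T cells, had the largest called change among these genes in Caco-2. It read 3.87 and 3.90 in Caco-2 shRNA arrays, against 9.05 and 8.98 in Caco-2 control arrays, and was at least 32.3-fold lower (log2 -5.13, SE 0.10, adjusted p = 1.45e-06, limma). Both Caco-2 shRNA arrays lay under log2 4 and both Caco-2 control arrays far above it. In HUG1N it read 4.73 and 4.66 in shRNA arrays and 4.38 and 4.66 in control arrays, which overlapped. These values lay only just over log2 4, and 2 of the HUG1N arrays held the same value. A fall as large as in Caco-2 could thus not be seen in HUG1N. Without HUG1N control replicate 2 the HUG1N change was called, at 0.31 (adjusted p = 0.0355). The effects differed by 5.30 (SE 0.14, adjusted p = 9.15e-06). Its partner BTNL3 read 2.08 and 2.97 in Caco-2 shRNA arrays and 3.01 and 3.13 in Caco-2 control arrays. BTNL3 in HUG1N read 4.41 and 4.62 in shRNA arrays and 3.13 and just over 4 in control arrays. The change of 0.95 missed the threshold (adjusted p = 0.0740, limma). It was called, at 1.38, without HUG1N control replicate 2. It also passed with values under log2 4 raised to 4 (0.52, adjusted p = 0.00285). That step makes all Caco-2 arrays equal and so shrinks the spread, which can make this p-value too small. BTNL3 and BTNL8 are close relatives in sequence, so signal shared between their probe sets is uncertain.

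AADAC, an esterase of the endoplasmic reticulum of enterocytes and hepatocytes, read 7.18 and 6.81 in Caco-2 shRNA arrays, against 10.34 and 10.24 in Caco-2 control arrays. AADAC in HUG1N read 8.68 and 8.50 in shRNA arrays, against 9.66 and 9.81 in control arrays. The shRNA arrays were lower in both lines, without overlap. AADAC was 9.84-fold lower in Caco-2 (log2 -3.30, SE 0.14, adjusted p = 3.02e-05, limma) and 2.21-fold lower in HUG1N (log2 -1.15, SE 0.14, adjusted p = 0.00130). The effects differed by 2.15 (SE 0.20, adjusted p = 6.46e-04). A1CF read 10.16 and 9.84 in Caco-2 shRNA arrays, against 10.66 and 10.61 in Caco-2 control arrays, and was 1.56-fold lower (adjusted p = 0.0120, limma). That call was lost without Caco-2 control replicate 1 (0.0641) or 2 (0.0540). In HUG1N A1CF was under log2 4 throughout.

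**Figure D4:**
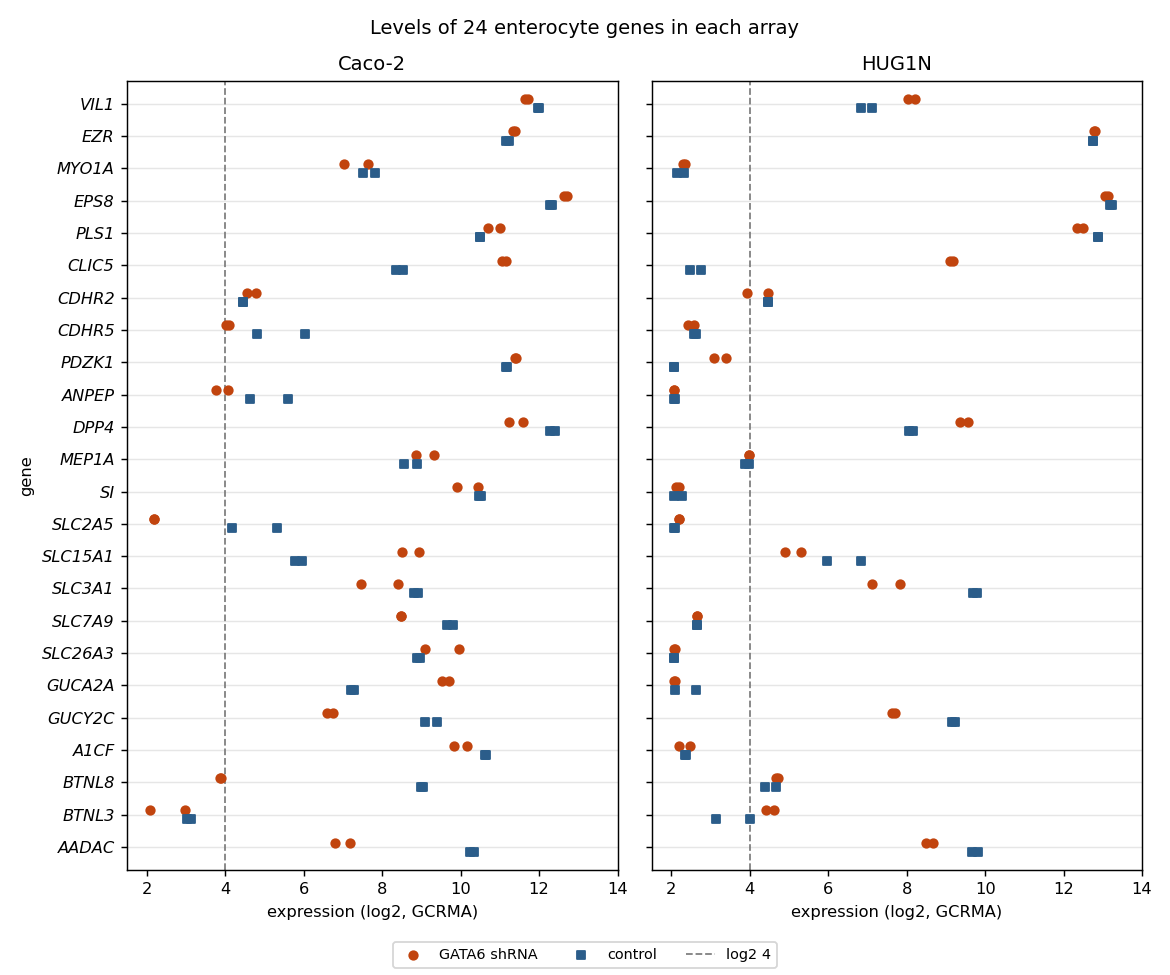
Log2 expression (horizontal axis) of the 24 tested genes in each of the 8 arrays, Caco-2 in one panel and HUG1N in the other, with GATA6 shRNA arrays as red circles above the control arrays as blue squares, and a dashed line at log2 4. CLIC5 rose and AADAC and GUCY2C fell in both lines, the Caco-2 shRNA arrays of BTNL8 lay below log2 4, and DPP4 and SLC15A1 moved in opposite directions.

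The effect of the shRNA differed between HUG1N and Caco-2 for 14 of the 24 genes, 10 with a positive and 4 with a negative difference, HUG1N minus Caco-2 (limma, adjusted p under 0.05). Over all tested genes 44.9% differed, 22.2% positive and 22.7% negative. The median difference of the 24 genes was 0.77, against 0.00 over all tested genes. Many of the 24 genes, called here or not, had no HUG1N array over log2 4. For most of those, such as SI and SLC26A3, the difference largely restates the Caco-2 change with its sign turned, and so in part does the median. For PDZK1, SLC2A5, SLC7A9, GUCA2A and A1CF no HUG1N array exceeded log2 4, so that the difference rests on the Caco-2 change alone or on values near the floor. The BTNL8 difference rests on Caco-2 shRNA arrays under log2 4. Its HUG1N arrays, at 4.38 to 4.73, lay only just over that limit, where a fall as large as in Caco-2 could not be seen. The CLIC5 difference rests on HUG1N control arrays under log2 4. The CLIC5 difference of 3.86 was not called with its mean over probe sets (0.95, adjusted p = 0.0857) or with its second probe set (0.37, adjusted p = 0.435), and that of A1CF was lost under 9 alternatives besides a 2-fold minimum.

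**Figure D5:**
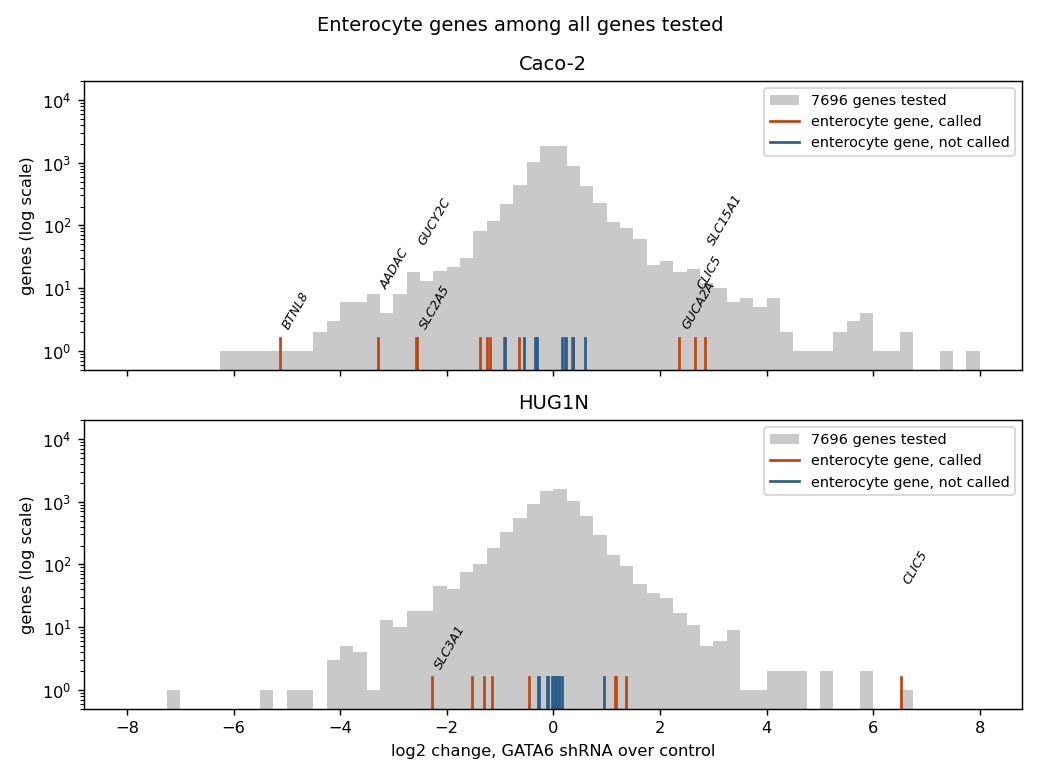
Number of genes (vertical axis, log scale) by log2 change, shRNA over control, for all 7696 tested genes in grey, with a tick for each of the 24 brush border, digestion and absorption genes, red where called and blue where not. Named ticks are the genes with the largest called changes, with BTNL8 at -5.13 and AADAC at -3.30 in Caco-2 and CLIC5 at 6.52 in HUG1N. The BTNL8 and CLIC5 values are fitted against a group under log2 4 and have no fixed size.

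Further genes, chosen by function and not all of the brush border itself, were counted for comparison. Of 28 further genes of microvilli and apical trafficking, 23 had a probe set and 19 were tested. In Caco-2 7 were higher and 3 lower, and in HUG1N 7 were higher and 3 lower, with median log2 changes of 0.12 and 0.11. Over all tested genes 19.5% were called higher and 19.2% lower in Caco-2, and 24.7% higher and 23.9% lower in HUG1N. These shares are the comparison for the counts of each list here and below, which were not tested against them. RDX (radixin, a relative of ezrin) rose by 1.08 in Caco-2 (adjusted p = 1.56e-04, limma), and EPS8L2, a relative of EPS8, rose by 0.92 in Caco-2 (4.48e-04) and 0.93 in HUG1N (3.90e-04). MISP, an actin bundler of the microvillar rootlet, fell by 0.72 in Caco-2 (0.00131). In HUG1N CALML4, a light chain of a brush border myosin, rose by 1.05 (1.77e-04), while the villin-like gene VILL fell by 1.10 (1.91e-04) and EPS8L3 by 1.83 (2.67e-04).

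Of 49 further digestion and absorption genes, 37 had a probe set and 18 were tested. Of these, 4 were higher and 4 lower in Caco-2, and 3 were higher and 5 lower in HUG1N. The median changes were 0.06 and 0.10. The chloride cotransporter SLC12A2 fell by 1.47 in Caco-2 (adjusted p = 0.00329, limma) and rose by 1.51 in HUG1N (0.00227). ATP1B1, a sodium pump subunit, fell by 0.80 in Caco-2 (6.06e-04). The glutamate carrier SLC1A1 rose by 0.59 in Caco-2 (0.00280) and by 0.55 in HUG1N (0.00288), and the amino acid carrier SLC7A8 rose by 0.89 in Caco-2 (0.00153), which was not called with the mean of its probe sets (0.22, adjusted p = 0.114). In HUG1N the carnitine carrier SLC22A5 fell by 1.24 (0.00111). KRT20, a keratin of differentiated gut surface cells, read 8.76 and 8.33 in HUG1N shRNA arrays, against 4.97 and 3.66 in HUG1N control arrays, and rose by 4.23 (SE 0.41, adjusted p = 5.41e-04).

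Of 23 transcription factors known to act on enterocyte genes, 15 had a probe set and 12 were tested. Of these, 2 were higher and 5 lower in Caco-2, and 1 was higher and 5 lower in HUG1N. The 12 include GATA6, the target of the shRNA, which is among the 5 lower in Caco-2. ELF3 rose by 1.40 in Caco-2 (adjusted p = 1.70e-04, limma) and fell by 0.93 in HUG1N (6.70e-04). VDR, the vitamin D receptor, rose by 1.12 in Caco-2 (7.46e-04) and fell by 0.37 in HUG1N (0.0346). FOXA1 fell by 0.50 in Caco-2 (0.0176) and rose by 0.73 in HUG1N (0.00321). CDX1, a homeobox factor of the intestine, fell by 1.59 in HUG1N (0.00457), a call just lost with HUG1N fitted alone (0.0503). The VDR call in HUG1N was lost without an expression filter (adjusted p = 0.0844, limma) and with HUG1N fitted alone (0.0996). It was also lost without either Caco-2 shRNA array, HUG1N control replicate 2 or HUG1N shRNA replicate 2 (-0.27 for each of the last 2). For FOXA1 in Caco-2 the call was lost without an expression filter (adjusted p = 0.0527, limma). It was also lost without Caco-2 control replicate 1 (-0.41) or either Caco-2 shRNA array (-0.51 and -0.49). GATA4 passed the test in Caco-2 at -0.78 (0.00218), but with no Caco-2 array over log2 4.

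Some markers of other epithelial cell types moved as well. Of 14 goblet, Paneth and enteroendocrine markers 5 were tested, with 3 lower and none higher in Caco-2, and 3 higher and none lower in HUG1N. Their summed linear level was 1537 to 1571 in Caco-2 shRNA arrays and 4202 to 4564 in Caco-2 control arrays, and 13219 to 14596 in HUG1N shRNA arrays and 7961 to 7994 in HUG1N control arrays. TFF3 and LYZ were the highest of these markers in every group, and 9 of the 14 exceeded log2 4 in no array. TFF3 averaged 10.33 in Caco-2 shRNA and 11.80 in Caco-2 control arrays, and LYZ 7.52 and 9.47. In HUG1N shRNA and control arrays TFF3 averaged 12.21 and 10.93, and LYZ 12.99 and 12.42. The ZG16 call in Caco-2 and the LYZ call in HUG1N were lost without an expression filter (adjusted p = 0.136 and 0.0822, limma). Neither call was kept without any one array of its line, with changes of -0.91 to -0.51 for ZG16 and 0.49 to 0.65 for LYZ. The ZG16 call was also lost without either HUG1N shRNA array and with a trended, robust variance model (adjusted p = 0.0520, limma). Of 10 gastric markers 5 were tested, with 2 lower in Caco-2 and 1 higher and 2 lower in HUG1N. The gastric sum was 380.0 to 440.1 in Caco-2 shRNA arrays and 3802 to 4019 in Caco-2 control arrays, and 20666 to 25149 in HUG1N shRNA arrays and 30310 to 31537 in HUG1N control arrays. TFF1 and TFF2 were the highest gastric markers in every group, and 5 of the 10 exceeded log2 4 in no array. In Caco-2 shRNA and control arrays TFF1 averaged 8.05 and 11.24, and TFF2 6.23 and 10.45. Of the 6 epithelial identity genes, 4 were higher and none lower in Caco-2, and 5 higher and none lower in HUG1N, with median changes of 1.35 and 0.49. KRT19 rose by 1.56 in Caco-2 and 1.46 in HUG1N. Their part in the changes of the brush border genes was not tested.

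Most non-epithelial markers were not measurable. Of 12 fibroblast markers 9 exceeded log2 4 in no array, among them VIM and COL1A2, as did 7 of 8 immune markers, among them PTPRC, and 5 of 6 endothelial markers. The exceptions were COL1A1 (means of 4.16 to 4.60 in the groups), LUM, ACTA2, CD14 (3.28 in Caco-2 shRNA and 4.61 in Caco-2 control arrays) and PECAM1. PECAM1 averaged 4.31 in Caco-2 shRNA arrays and 5.29 in Caco-2 control arrays and fell by 0.99 (adjusted p = 0.0400, limma), a call lost without any one array other than Caco-2 shRNA replicate 1 (0.0678 to 0.187). The fibroblast sum was 240.6 to 264.1 in Caco-2 shRNA arrays and 73.9 to 77.7 in Caco-2 control arrays, where LUM rose at least 11.6-fold. In HUG1N it was 73.7 to 79.4 in shRNA arrays and 129 to 157 in control arrays, where ACTA2 was at least 4.85-fold lower.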

How the data were processed

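RNA of 2 human cell lines, with and without a GATA6 shRNA, was measured on 8 Affymetrix arrays with 3′ probe sets. Per the submitters' processing notes, the authors used GCRMA to obtain the deposited log2 values, 1 per probe set and array (version not given in the sources used here). GCRMA corrects background by base content and scales the arrays to each other, so that low transcripts pile up at a floor. No further scaling was applied.

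The platform table gave 1 symbol to 19070 of the 22277 probe sets, several to 1043 and none to 2164. Entrez identifiers of 19058 matched RefSeq genes (GRCh38.p14), which gave current symbols. The brightest probe set stood for each of 11963 genes. Genes over log2 4 in at least 2 arrays were tested (7696), and 4267 were not. limma 3.58.1 in R 4.3.3 was fitted to the 4 group means (lmFit, eBayes), with Benjamini-Hochberg adjustment over all tested genes and calls at an adjusted p under 0.05. Residual degrees of freedom were 4, with a prior of 2.17. All groups share 1 spread per gene. Groups at the floor hardly vary, and groups raised as a whole to log2 4 do not vary at all, which can make SE and p too small for such genes. Where no array of the lower group exceeded log2 4, the fold is a bound that sets the higher group's mean against 4, without allowance for its spread. Arrays give no depth, and their number limits the precision. The fit was tested on simulated data.

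The genes named were GATA6, every listed gene with a probe set, and up to 3 called genes per line of each further list. The genes, lists and tests were chosen with earlier results of these data known. Alternatives covered filter, floor, scaling, probe set choice, variance model, a replicate block and leaving out each array.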

Additional observations from a re-analysis of the deposited data

Results flagged for a closer look

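The test of the difference between the shRNA effects, HUG1N minus Caco-2, passed for 14 genes, and the values below are log2 differences (limma, adjusted p under 0.05 over all tested genes). With levels over log2 4 in every group, DPP4 differed by 2.29, AADAC by 2.15, VIL1 by 1.45 and GUCY2C by 1.05. On the negative side, SLC15A1 differed by -4.14, PLS1 by -0.81 and EPS8 by -0.48. BTNL8 differed by 5.30, with its Caco-2 shRNA level under log2 4 and its HUG1N arrays only just over it (4.38 to 4.73). CLIC5 differed by 3.86, with its HUG1N control level under log2 4, and by 0.37 and -1.39 with its other probe sets. Where HUG1N lay under log2 4 in all arrays, the differences were 2.67 for SLC2A5, 1.25 for SLC7A9, 0.93 for PDZK1, 0.62 for A1CF and -2.65 for GUCA2A.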

How the results depend on the processing

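The number of genes called, out of 24, ranged over 18 alternatives from 10 to 17 in Caco-2 (14 as reported), from 7 to 10 in HUG1N (9), and from 17 to 22 between the control groups (19). For the difference between the lines it ranged over 17 alternatives from 10 to 16 (14). With a 2-fold minimum 3 genes rose in Caco-2 in place of 5, and without HUG1N shRNA replicate 1, 3 genes fell in HUG1N in place of 5. Apart from that minimum, 9 of the 14 calls in Caco-2, 6 of the 9 in HUG1N, 17 of the 19 between controls and 10 of the 14 differences were kept under every alternative other than single probe sets. Lost in HUG1N beside those named above was PDZK1, with values under log2 4 raised to 4. Lost among the differences were A1CF, CLIC5 (mean of its probe sets, 0.95, adjusted p = 0.0857, limma), PDZK1 and SLC2A5. Between controls AADAC (-0.56) was lost without Caco-2 control replicate 1 (adjusted p = 0.0588, limma) or HUG1N control replicate 1 (0.0613), and SLC2A5 with values raised to 4. For the difference between the lines, MYO1A, CDHR2, CDHR5, ANPEP, SI, SLC3A1, SLC26A3 and BTNL3 passed in at least 1 fit that left out 1 array. Calls gained in HUG1N without 1 array, beside those named above, were CDHR2 without HUG1N shRNA replicate 2 (-0.54) and GUCA2A without HUG1N control replicate 1 (-0.55, under log2 4). The brightest EZR probe set passed in Caco-2 without a filter and with a trended, robust variance model (0.16 in both). Some signs turned. With single arrays left out, the SI change in HUG1N ran from -0.11 to 0.081 and that of A1CF from -0.15 to 0.12, the positive values arising without HUG1N control replicate 1 or HUG1N shRNA replicate 1. Between controls, GUCY2C ran from -0.20 to 0.083 (without Caco-2 control replicate 2) and GATA6 from -0.14 to 0.049 (without Caco-2 control replicate 1). The EZR difference was 0.60 with the mean of its probe sets, and 1.24 and 1.04 with 2 other probe sets, which read -0.10 and -0.068 in Caco-2. The PDZK1 difference was -0.24 with values raised to 4, and the CLIC5 difference -1.39 with its dimmest probe set. The alternatives by single probe set were added after seeing the data. The cause was not tested. With the replicate number as a block, 13 genes were called in Caco-2, 10 in HUG1N, 20 between controls and 16 for the difference. Among single genes the block ended the call of PLS1 in Caco-2 (adjusted p = 0.0729, limma), of PECAM1 in Caco-2 (0.0606), of VDR in HUG1N (0.0524) and of the A1CF difference (0.0615). It called in HUG1N BTNL3 (0.0233) and GATA6 (0.0468), between controls SLC3A1 (0.0291), and for the difference ANPEP (0.0491), SLC3A1 (0.0417) and BTNL3 (0.0189). Deviations of same-numbered arrays correlated at -0.063 to 0.066, so these arrays shared no clear deviation over the tested genes. Whether the numbers mark a shared culture or batch is not stated.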
